A study of Homo sapiens with 12 samples.

Results

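The 9 genes described here set the direction of glucose carbon at 3 branch points. They were chosen by name from the 55765 genes of the count tables, with earlier results of these data known. HK2 and G6PC add and remove the phosphate of glucose-6-phosphate. PFKFB2, PFKFB3 and PFKFB4 set the level of the fructose bisphosphate that activates phosphofructokinase. PDK1, PDK2, PDK3 and PDK4 switch off pyruvate dehydrogenase. T47D is an established line of luminal breast cancer cells that carries the progesterone receptor. All cells were grown in RPMI medium with insulin and fetal bovine serum, given either control siRNA (siCT) or siRNA that lowers PRMT1, an arginine methyltransferase (siPRMT1), and then given 10 nM of the synthetic progestin R5020 or the same volume of ethanol for 6 h. The ethanol samples are titled T0 and the R5020 samples T6H, while the treatment label of the ethanol samples gives 6 h. That label was used here, so a matched time of the ethanol samples rests on it. Each of the 4 groups (siCT ethanol, siCT R5020, siPRMT1 ethanol, siPRMT1 R5020) holds 3 biological replicates, per the labels. The study covers a single cell line, and the labels' text used here names 1 control and 1 PRMT1 siRNA condition.

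Hexokinases trap glucose in the cell as glucose-6-phosphate, and HK2 is the inducible form that is high in many tumours. Glucose-6-phosphatase, whose catalytic subunit is G6PC, reverses that step and is best known from liver and kidney, where it lets cells export glucose. The PFKFB enzymes carry a kinase and a phosphatase in 1 protein. PFKFB3 leans strongly to the kinase, which drives glycolysis, and PFKFB4 and PFKFB2 are its relatives. Pyruvate dehydrogenase kinases phosphorylate the pyruvate dehydrogenase complex and so keep pyruvate out of mitochondrial oxidation. PDK4 is the form known for its induction by fasting and by glucocorticoids.

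Library totals ran from 26783525 to 34120937 counts. Replicate 3 of siCT ethanol and replicate 1 of siCT R5020 stood apart, with 59.3% and 52.4% of counts on mitochondrially encoded genes where the remaining 10 libraries had 31.3% to 38.3%, so calls of the 9 genes that change without this pair are given below with and without it, and the counts and lost calls of the other pathway genes likewise. The mean level of PRMT1 was 37.5 ± 7.83 CPM with siCT and 8.23 ± 0.268 CPM with siPRMT1 in ethanol, and 43.0 ± 6.89 and 7.08 ± 0.258 CPM in R5020 (SD, n = 3), and all 6 siPRMT1 libraries lay below all 6 siCT libraries. All 7 luminal breast markers were counted, with a summed level of 5162 to 9539 CPM in the siCT libraries and 10609 to 14956 CPM in the siPRMT1 libraries. Over the 12 libraries, KRT18 ranged from 1887 to 7734 CPM, and PGR, the progesterone receptor gene, from 134 to 1147 CPM. The list of 6 hepatocyte markers summed to at most 0.273 CPM in any library, with APOH at 0 in all of them, and the 5 kidney tubule markers to at most 0.0816 CPM. Among 5 markers of stroma and leukocytes, COL1A1 carried the sum, which ranged from 28.5 to 79.3 CPM in siCT and from 29.9 to 35.7 CPM in siPRMT1 libraries. Their part in the results was not tested.

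Levels are CPM, that is counts scaled to a common library total after TMM. A call means that edgeR's quasi-likelihood test, adjusted over the 17727 genes tested, gave p under 0.05. All 9 genes passed the filter on low counts. The 5 comparisons use the same 4 groups and so share libraries.

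R5020 raised 5 of the 9 genes (HK2, G6PC, PFKFB3, PFKFB4 and PDK4) and lowered 1 (PFKFB2) in siCT cells, where 7.59% of all genes tested were called higher and 5.43% lower. In siPRMT1 cells the same 5 were called higher and the same 1 lower, against 9.30% and 6.08% of all genes. In bulk RNA, a change in the RNA per cell and a change in the number of cells that express a gene cannot be told apart. The median log2 fold change over 8 of the 9 genes (G6PC has no fold) was 0.68 in siCT and 0.73 in siPRMT1 cells, and that over all genes was -0.04 and -0.00361. Loss of PRMT1 in ethanol raised HK2 and PDK4 and lowered PFKFB3 and PFKFB4, where 13.6% of all genes were called higher and 19.2% lower. In R5020, HK2 and PDK4 were again called higher and PFKFB3 lower, against 11.5% and 14.2% of all genes. Over all 9 genes in R5020 the median was 0.32, and over 8 of them in ethanol it was 0.16, beside -0.03 and -0.07 over all genes. PDK1, PDK2 and PDK3 passed the threshold in none of these comparisons. As the 9 genes were chosen with earlier results of these data known, the counts and medians set beside all genes are a description and not a test.

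The balance of calls over all genes depended on the scaling. Of all calls for R5020 in siPRMT1 cells, 60.5% were higher with TMM and 43.5% with library totals alone, and for siPRMT1 in R5020 the shares were 44.9% and 30.6%. Library totals moved the median log2 fold change of all genes from -0.00361 to -0.18 for R5020 in siPRMT1 cells and from -0.07 to 0.11 for siPRMT1 in ethanol. The member values under that scaling are given below where they miss the threshold or change sign.

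The difference between both R5020 effects (the interaction, siPRMT1 minus siCT) was called in 0 of the 9 genes, against 0.0451% of all genes called higher and 0.0338% called lower. With edgeR, 2 of the 9 and 720 of all genes had an unadjusted p under 0.05, limma voom called 0 of the 9, and DESeq2 called 1 of the 9, PFKFB3. Of all interaction calls, 57.1% were higher with edgeR (14 genes), 33.3% with library totals alone (3 genes) and 37.1% with DESeq2 (89 genes).

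**Figure D1:**
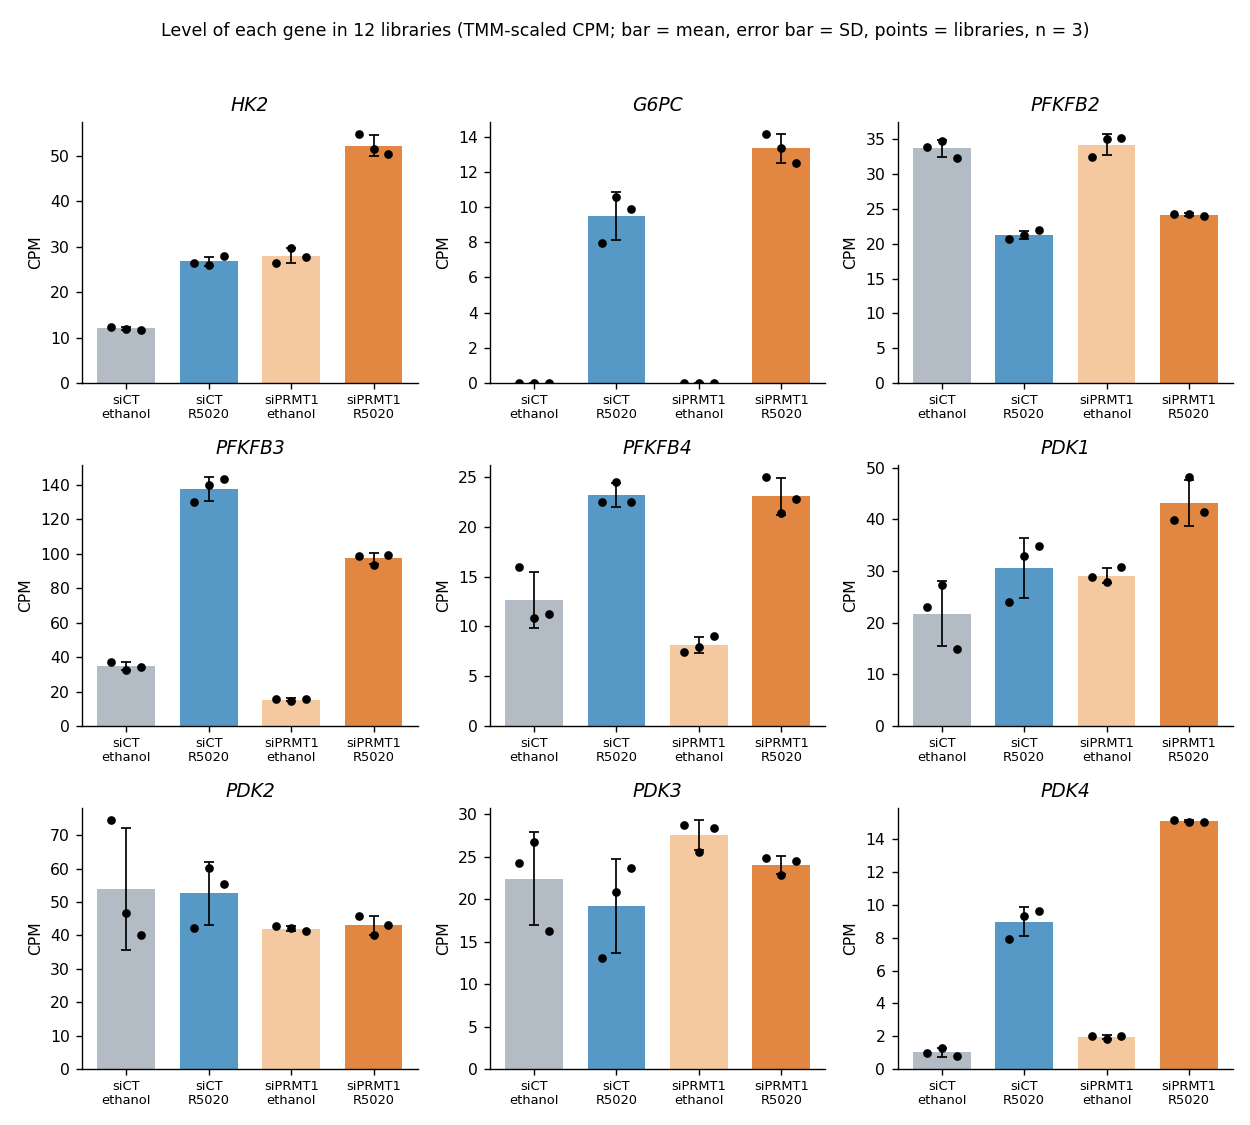
Level of each of the 9 genes in the 12 libraries, in TMM-scaled CPM on a linear axis that starts at 0, by siRNA and treatment; bars are means, error bars the SD over 3 libraries and points the libraries. HK2, G6PC and PDK4 were highest with R5020 and siPRMT1 together, PFKFB3 was highest with R5020 in siCT cells, and PFKFB2 was lower in both R5020 groups than in both ethanol groups.

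In the plot of levels by library, HK2 and PDK4 rose with each of the 2 treatments, and PFKFB3 rose with R5020 and fell with siPRMT1. PFKFB4 rose with R5020 and PFKFB2 fell with it. G6PC was read in the R5020 groups, and PDK2 and PDK3 had groups whose libraries mostly overlapped.

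Sequence upstream of the 5 genes called higher with R5020 is given here because all 5 were called higher in both siRNA backgrounds, and because steroid receptors, the hypoxia-inducible factor, E-box proteins and forkhead proteins each have short DNA motifs that can be looked up in it. RefSeq windows (build GRCh38.p14) matched 8 of the 9 genes, with 13 windows in all, and the 250 bases before the annotated start are printed 5′ to 3′ on the gene's strand. PFKFB2 had no entry. For HK2 and PFKFB3 the window with more matches is shown. Capitals mark matches to any of the motifs searched on either strand.
HK2 (the downstream of 2 annotated starts), chr2:74834920-74835169, plus strand: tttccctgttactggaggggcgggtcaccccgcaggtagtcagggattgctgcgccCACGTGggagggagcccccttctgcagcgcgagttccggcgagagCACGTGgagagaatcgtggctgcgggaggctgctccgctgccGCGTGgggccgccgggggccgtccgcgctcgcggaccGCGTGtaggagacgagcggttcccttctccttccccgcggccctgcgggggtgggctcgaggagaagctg
G6PC, chr17:42900549-42900798, plus strand: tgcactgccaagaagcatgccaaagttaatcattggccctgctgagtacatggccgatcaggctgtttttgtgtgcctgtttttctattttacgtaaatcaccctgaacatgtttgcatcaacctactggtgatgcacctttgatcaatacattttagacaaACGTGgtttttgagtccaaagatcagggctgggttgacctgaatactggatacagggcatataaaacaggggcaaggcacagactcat
PFKFB3 (the downstream of 2 annotated starts), chr10:6202682-6202931, plus strand: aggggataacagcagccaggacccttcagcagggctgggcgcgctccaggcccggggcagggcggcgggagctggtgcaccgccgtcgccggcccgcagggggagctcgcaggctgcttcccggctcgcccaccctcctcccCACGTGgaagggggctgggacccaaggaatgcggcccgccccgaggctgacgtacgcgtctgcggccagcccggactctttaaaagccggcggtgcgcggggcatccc
PFKFB4, chr3:48556804-48557053, minus strand: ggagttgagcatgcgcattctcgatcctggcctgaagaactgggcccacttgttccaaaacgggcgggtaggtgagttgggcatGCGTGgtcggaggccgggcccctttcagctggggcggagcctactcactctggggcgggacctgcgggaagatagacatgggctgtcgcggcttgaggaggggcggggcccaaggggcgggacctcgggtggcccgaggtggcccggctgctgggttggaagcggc
PDK4, chr7:95596517-95596766, minus strand: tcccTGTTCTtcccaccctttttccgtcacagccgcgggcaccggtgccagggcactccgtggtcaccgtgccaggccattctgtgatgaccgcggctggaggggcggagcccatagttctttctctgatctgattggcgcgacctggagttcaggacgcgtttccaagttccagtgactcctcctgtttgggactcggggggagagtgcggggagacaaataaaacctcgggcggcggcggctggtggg

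The motifs searched were a paired steroid receptor element (AGNACA and TGTNCT, 3 bases apart), its single arm TGTTCT, the hypoxia element cores ACGTG and GCGTG, the E-box CACGTG (which contains ACGTG on both strands) and the forkhead motif GTAAACA. None of the 13 windows held the paired element, which 0.0456% of all 35116 windows of the same length held. That single arm was in 1 of 13 windows, that of PDK4, at base -246 from the start, and in 12.4% of all windows. The E-box was in 3 of 13 windows, counting the downstream start of HK2 with matches at -194 and -149, that of PFKFB3 at -108 and the second start of PDK2 at -129, against 6.34% of all windows. ACGTG was in 7 of 13 windows and 18.5% of all, and its only match upstream of G6PC began at -88. GCGTG was in 6 of 13 windows and 32.2% of all, with 1 match upstream of PFKFB4 at -166. The forkhead motif was in 0 of 13 windows and 2.98% of all. A match describes letters in these windows and was not tied to any level.

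HK2 (GENCODE release 29, GRCh38 chr2:74833981-74893359, plus strand) was raised by R5020 and by siPRMT1, and its level with both was 4.33 times that with neither. Its level was 12.5, 12.01 and 11.7 CPM in replicates 1 to 3 of siCT ethanol and 26.4, 26.03 and 27.9 CPM in siCT R5020. In siPRMT1 cells it was 26.5, 29.8 and 27.9 CPM in ethanol and 54.8, 51.5 and 50.3 CPM in R5020. The siCT R5020 and siPRMT1 ethanol libraries overlapped, and no other neighbours in the order of the groups did. R5020 raised HK2 2.22-fold in siCT cells (log2 1.15, SE 0.12, adjusted p = 1.83e-05) and 1.86-fold in siPRMT1 cells (log2 0.90, SE 0.12, adjusted p = 0.000106). siPRMT1 raised it 2.32-fold in ethanol (log2 1.22, SE 0.12, adjusted p = 2.63e-05) and 1.95-fold in R5020 (log2 0.96, SE 0.12, adjusted p = 0.000160). The R5020 effects in both backgrounds differed by -0.25 on the log2 scale (95% interval -0.61 to 0.10, adjusted p = 1.000), so a smaller or a similar fold in siPRMT1 cells both lie within the error. With library totals in place of TMM, the R5020 effect on HK2 in siPRMT1 cells was 0.72 on the log2 scale and missed the threshold (adjusted p = 0.0760).

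HK1, the constitutive hexokinase, was not called in any comparison, but was called higher with siPRMT1 in ethanol without the pair of libraries rich in mitochondrial counts (log2 0.28, adjusted p = 0.0232). Per exon base, HK2 made up 10.2% ± 0.708 of the summed HK1 and HK2 counts with siCT and ethanol, 16.8% ± 0.466 with siCT and R5020, 17.2% ± 0.704 with siPRMT1 and ethanol, and 27.6% ± 2.50 with siPRMT1 and R5020 (SD, n = 3). HK1 thus stayed the more abundant of the pair per base in all 12 libraries, where the highest share of HK2 was 30.3%. These shares divide by the union of all annotated exons, and with the longest coding transcript they were 7.07%, 11.9%, 12.2% and 20.3%, in the same order. HKDC1, a related hexokinase gene, had 1 to 7 counts per group.

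G6PC (GRCh38 chr17:42900797-42913369, plus strand) went from nearly unread to a clear level with R5020. It had 0, 0 and 0 counts in siCT ethanol and 0, 0 and 1 count in siPRMT1 ethanol. With R5020 it had 197, 383 and 317 counts in siCT cells, which is 7.95, 10.6 and 9.90 CPM, and 437, 367 and 397 counts in siPRMT1 cells, which is 14.1, 13.4 and 12.5 CPM. All 6 R5020 libraries lay above all 6 ethanol libraries, and all 3 siPRMT1 R5020 libraries lay above all 3 siCT R5020 libraries. In siCT cells the mean level rose at least 85.0-fold, with the ethanol level set to a floor of 3 counts a library, 0.111 CPM (adjusted p = 8.55e-08). In siPRMT1 cells the ratio against the 1 count in ethanol was 1478.5, with a 95% exact Clopper-Pearson interval of 264.9 to 58446 that covers counting error only (adjusted p = 3.93e-08).

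The level of G6PC in R5020 was 13.3 ± 0.806 CPM in siPRMT1 and 9.47 ± 1.36 CPM in siCT cells (SD, n = 3), a 1.41-fold difference that missed the threshold (log2 0.49, SE 0.19, adjusted p = 0.0785). It was called with DESeq2 (adjusted p = 0.0298), with limma voom (adjusted p = 0.00562), with only the groups compared (adjusted p = 0.0283) and without the pair of libraries rich in mitochondrial counts (log2 0.39, adjusted p = 0.0449). It was also called when either siCT ethanol replicate 2 (adjusted p = 0.0495) or siCT ethanol replicate 3 (adjusted p = 0.0317) was left out. In the authors' deposited table this difference was called, with an adjusted p of 0.0185. Per exon base, the ratio of G6PC to HK2 with R5020 was 0.651 ± 0.0961 for siCT and 0.470 ± 0.0109 for siPRMT1, and with ethanol it was 0 and 0.000599 ± 0.00104. The kinase gene therefore remained above the phosphatase gene per base in every library, at a highest ratio of 0.746. The hepatocyte and kidney marker sums were at most 0.273 and 0.0816 CPM. The source of the G6PC reads was not tested.

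PFKFB3 (GRCh38 chr10:6144934-6254644, plus strand) had the highest level of the 3 PFKFB genes with R5020 and was the member that siPRMT1 lowered most in ethanol among those with a fold. Its level was 37.3, 32.7 and 34.01 CPM in siCT ethanol and 130.0, 139.8 and 143.1 CPM in siCT R5020. siPRMT1 cells had 15.6, 14.7 and 15.9 CPM in ethanol and 98.6, 93.7 and 99.5 CPM in R5020. No 2 groups overlapped, and both siPRMT1 groups lay below the siCT group of the same treatment. R5020 raised PFKFB3 3.97-fold in siCT (log2 1.99, SE 0.13, adjusted p = 2.42e-07) and 6.32-fold in siPRMT1 cells (log2 2.66, SE 0.13, adjusted p = 2.78e-08). siPRMT1 lowered it 2.25-fold in ethanol (log2 -1.17, SE 0.12, adjusted p = 5.35e-05) and 1.42-fold in R5020 (log2 -0.50, SE 0.12, adjusted p = 0.0102).

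The difference between the R5020 effects on PFKFB3 was 0.67 on the log2 scale (SE 0.17, 95% interval 0.30 to 1.04, unadjusted p = 0.00181), and it missed the threshold after adjustment over all genes (adjusted p = 0.375). DESeq2 called it (log2 0.65, adjusted p = 0.00208), as did edgeR without siCT ethanol replicate 3 and siCT R5020 replicate 1 (log2 0.64, adjusted p = 0.0315). The lower level with siPRMT1 in R5020 missed the threshold with library totals (adjusted p = 0.232), with no filter on low counts (adjusted p = 0.0820) and without siPRMT1 R5020 replicate 2 (adjusted p = 0.0562).

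PFKFB4 (GRCh38 chr3:48517684-48562015, minus strand) moved with PFKFB3 under R5020 at a lower level. It was read at 15.9, 10.8 and 11.2 CPM in siCT ethanol and at 22.5, 24.5 and 22.5 CPM in siCT R5020. The siPRMT1 libraries held 7.40, 7.98 and 9.01 CPM in ethanol and 25.0, 21.4 and 22.8 CPM in R5020. The 2 R5020 groups overlapped, and the siPRMT1 ethanol libraries were the lowest. R5020 raised PFKFB4 1.83-fold in siCT (log2 0.87, SE 0.16, adjusted p = 0.00253) and 2.84-fold in siPRMT1 cells (log2 1.504, SE 0.17, adjusted p = 2.75e-05). siPRMT1 lowered it 1.56-fold in ethanol (log2 -0.64, SE 0.16, adjusted p = 0.0108). In R5020 the siPRMT1 and siCT means were 23.1 and 23.2 CPM, a log2 difference of -0.01 with a 95% interval of -0.35 to 0.34, which was 0.02 with library totals and 0.01 with no filter.

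The R5020 effects on PFKFB4 differed by 0.64 on the log2 scale (95% interval 0.14 to 1.13, unadjusted p = 0.0159, adjusted p = 0.847). Its rise in siCT cells missed the threshold with library totals (adjusted p = 0.106) and with only the groups compared (adjusted p = 0.0515). The fall with siPRMT1 in ethanol missed it under the same changes (adjusted p = 0.262 and 0.0675) and without siPRMT1 ethanol replicate 1 (adjusted p = 0.0552). In the authors' deposited table that fall had an adjusted p of 0.0834. Of the annotated exon bases of PFKFB4, 4.73% are shared with UCN2 on the same strand.

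PFKFB2 (GRCh38 chr1:207034366-207081024, plus strand), the form known from heart, was the 1 gene of the 9 that R5020 lowered. Its level was 33.96, 34.7 and 32.4 CPM in siCT ethanol and 20.7, 21.2 and 21.9 CPM in siCT R5020. In siPRMT1 cells it was 32.5, 35.1 and 35.2 CPM in ethanol and 24.3, 24.3 and 23.9 CPM in R5020. The ethanol groups overlapped each other, and all 6 R5020 libraries lay below all 6 ethanol libraries. The fall was 1.58-fold in siCT (log2 -0.66, SE 0.11, adjusted p = 0.00118) and 1.42-fold in siPRMT1 cells (log2 -0.50, SE 0.11, adjusted p = 0.00711). With library totals the adjusted p was 0.117 and 0.106, with only the groups compared the siCT value was 0.0916, and with no filter the siPRMT1 value was 0.0954. siPRMT1 gave log2 differences of 0.02 in ethanol (95% interval -0.22 to 0.26) and 0.18 in R5020 (95% interval -0.06 to 0.43), neither of which was called. In the authors' deposited table the fall in siCT cells had an adjusted p of 0.0537.

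Within the PFKFB family the mix therefore shifted toward PFKFB3 with R5020. Per exon base, PFKFB3 made up 50.9% ± 1.15 of the 4 PFKFB genes with siCT and ethanol, 79.2% ± 0.708 with siCT and R5020, 34.6% ± 1.58 with siPRMT1 and ethanol, and 71.9% ± 0.696 with siPRMT1 and R5020 (SD, n = 3). PFKFB2 had the largest share in siPRMT1 ethanol, 46.1% ± 1.22, and shares of 29.8% ± 2.19, 7.35% ± 0.175 and 10.7% ± 0.450 in siCT ethanol, siCT R5020 and siPRMT1 R5020. The ratio of PFKFB3 to PFKFB2 per base was 1.72 ± 0.134, 10.8 ± 0.277, 0.751 ± 0.0513 and 6.71 ± 0.263 in siCT ethanol, siCT R5020, siPRMT1 ethanol and siPRMT1 R5020. PFKFB4 kept a narrower range, with mean shares from 13.4% to 18.5%, and PFKFB1, the liver form, stayed at or under 1.34% in every library. With the longest coding transcript as the length, the PFKFB3 share was 47.8%, 76.2%, 32.2% and 68.4% in the same order of groups.

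**Figure D2:**
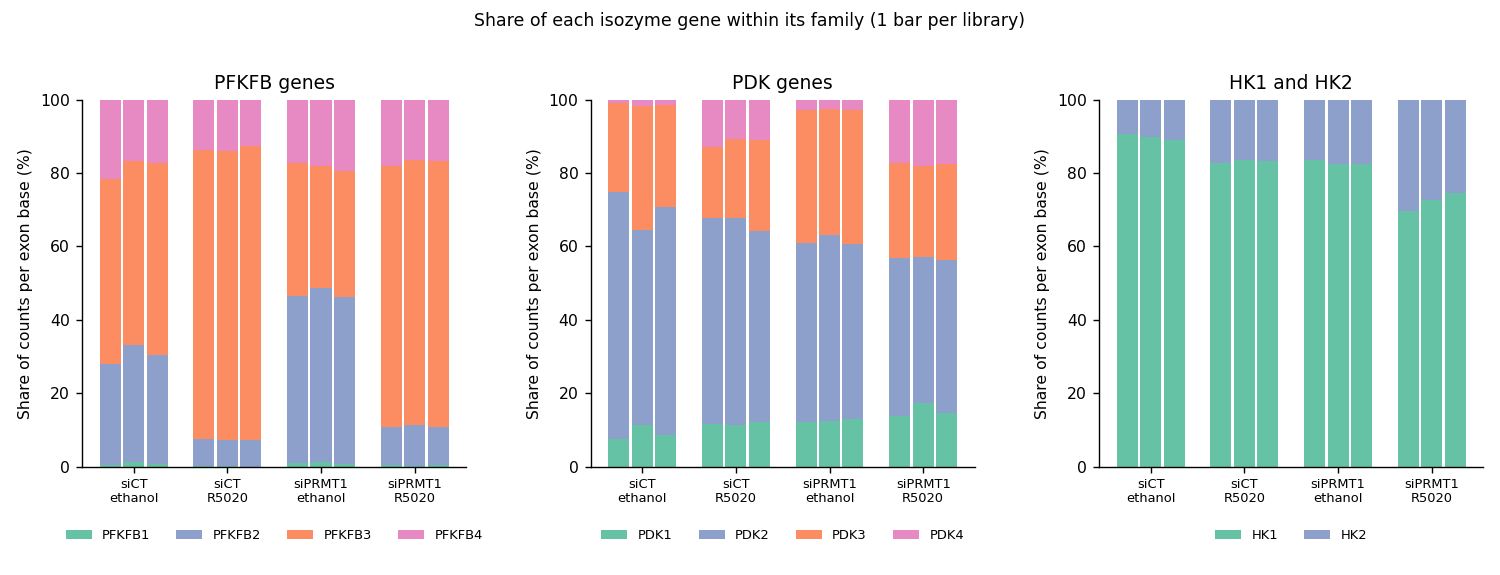
Share of each gene in the counts per exon base of its family, in percent, with 1 stacked bar per library for the PFKFB genes, the PDK genes and the pair HK1 and HK2. The PFKFB3 band is widest in the R5020 libraries, at 78.8% to 80.0% in siCT and 71.1% to 72.4% in siPRMT1, and the PDK4 band widens from 1.04% to 1.79% in siCT ethanol to 17.3% to 18.0% in siPRMT1 R5020.

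The stacked bars by library show how alike the replicates of a group were. The widest spread of any of these genes was in siCT ethanol, where PDK2 took 53.2% to 67.2% of the PDK family.

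PDK4 (GRCh38 chr7:95583499-95596491, minus strand) had the largest R5020 fold of the 8 genes for which one could be given in siCT and in siPRMT1 cells. It was read at 0.954, 1.30 and 0.765 CPM in siCT ethanol, from 35, 44 and 14 counts, and at 7.95, 9.35 and 9.62 CPM in siCT R5020. siPRMT1 cells had 1.99, 1.81 and 2.04 CPM in ethanol and 15.2, 15.1 and 15.1 CPM in R5020. No 2 groups overlapped, and siPRMT1 lay above siCT at each treatment. R5020 raised PDK4 8.71-fold in siCT (log2 3.12, SE 0.19, adjusted p = 1.87e-07) and 7.75-fold in siPRMT1 cells (log2 2.95, SE 0.18, adjusted p = 1.46e-07). siPRMT1 raised it 1.89-fold in ethanol (log2 0.92, SE 0.20, adjusted p = 0.00415) and 1.68-fold in R5020 (log2 0.75, SE 0.16, adjusted p = 0.00534), the latter with an adjusted p of 0.103 under library totals. The R5020 effects differed by -0.17 on the log2 scale (95% interval -0.71 to 0.37, adjusted p = 1.000). With both treatments its mean level was 15.0 times that with neither.

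PDK1 (GRCh38 chr2:172555373-172608669, plus strand), the form known as a target of the hypoxia-inducible factor, had higher means with each treatment and passed the threshold in no comparison. Its level was 23.0, 27.3 and 15.0 CPM in siCT ethanol and 23.9, 32.9 and 34.9 CPM in siCT R5020. In siPRMT1 cells it was 28.7, 27.8 and 30.7 CPM in ethanol and 39.9, 48.2 and 41.3 CPM in R5020. The lowest value of each siCT group came from the library rich in mitochondrial counts, and the 2 siCT groups overlapped. R5020 gave a log2 difference of 0.49 in siCT (SE 0.20, adjusted p = 0.148) and 0.57 in siPRMT1 cells (SE 0.20, adjusted p = 0.0818). siPRMT1 gave 0.42 in ethanol (SE 0.20, adjusted p = 0.131) and 0.50 in R5020 (SE 0.20, adjusted p = 0.0873).

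These PDK1 values depended on single siCT libraries and on the test. Without the pair rich in mitochondrial counts, PDK1 was called for R5020 in siCT (log2 0.43, adjusted p = 0.0304) and in siPRMT1 cells (log2 0.56, adjusted p = 0.00116) and for siPRMT1 in R5020 (log2 0.36, adjusted p = 0.0257). Without siCT ethanol replicate 2 it was called for R5020 in both backgrounds (adjusted p = 0.0449 and 0.0447) and for siPRMT1 in ethanol (log2 0.60, adjusted p = 0.0319). Without siCT ethanol replicate 3 it was called for R5020 in siPRMT1 cells (adjusted p = 0.0156) and for siPRMT1 in R5020 (adjusted p = 0.0160). With limma voom the same 2 comparisons were called (adjusted p = 6.82e-06 and 0.00270), and so they were with only the groups compared (adjusted p = 8.89e-06 and 0.0374). The authors' deposited table called both as well, with adjusted p values of 5.37e-10 and 0.0205.

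PDK2 (GRCh38 chr17:50094737-50112152, plus strand), a widely expressed form, had the highest mean share of the PDK genes per exon base in every group and was not called. Its level was 74.6, 46.8 and 40.1 CPM in siCT ethanol and 42.1, 60.3 and 55.4 CPM in siCT R5020. With siPRMT1 it was 42.7, 42.2 and 41.3 CPM in ethanol and 45.9, 40.3 and 43.0 CPM in R5020. Neighbouring groups all overlapped, and siCT ethanol replicate 1 stood highest. The log2 difference with R5020 was -0.04 in siCT (95% interval -0.48 to 0.41), 0.28 without siCT ethanol replicate 1 and 0.11 without siCT R5020 replicate 1. In siPRMT1 cells it was 0.03 (95% interval -0.41 to 0.48), with -0.14 under library totals. With siPRMT1 it was -0.36 in ethanol (95% interval -0.80 to 0.09) and -0.29 in R5020 (95% interval -0.74 to 0.16). Both of the latter were called without the pair rich in mitochondrial counts (log2 -0.52 and -0.41, adjusted p = 0.0162 and 0.0483) and with limma voom (adjusted p = 0.0396 and 0.000694). Leaving out 1 library at a time gave log2 values from -0.47 to -0.05 in ethanol and from -0.42 to -0.18 in R5020, with 0 of them called. Of its annotated exon bases, 38.6% are shared with SAMD14 on the opposite strand. The strand setting of the counts is not given in the sources used here, so how reads on these shared bases were assigned is not known.

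PDK3 (GRCh38 chrX:24465221-24541862, plus strand) was not called in any comparison. Its level was 24.3, 26.8 and 16.2 CPM in siCT ethanol and 13.1, 20.9 and 23.7 CPM in siCT R5020. With siPRMT1 it was 28.8, 25.5 and 28.4 CPM in ethanol and 24.8, 22.8 and 24.5 CPM in R5020. As for PDK1, the lowest siCT values came from the libraries rich in mitochondrial counts. The log2 difference with R5020 was -0.22 in siCT (95% interval -0.69 to 0.24) and -0.20 in siPRMT1 cells (95% interval -0.66 to 0.26), the latter called with only the groups compared (log2 -0.21, adjusted p = 0.0247). With siPRMT1 it was 0.29 in ethanol (95% interval -0.17 to 0.76) and 0.32 in R5020 (95% interval -0.14 to 0.79). The R5020 intervals of PDK2 and PDK3 reach from -0.69 to 0.48 on the log2 scale, so a missed threshold does not show that their levels were equal.

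Within the PDK family, PDK4 was the smallest part in both ethanol groups and, per exon base, near PDK1 in both R5020 groups. Its share per exon base was 1.42% ± 0.373 with siCT and ethanol, 11.5% ± 1.201 with siCT and R5020, 2.76% ± 0.107 with siPRMT1 and ethanol, and 17.6% ± 0.362 with siPRMT1 and R5020 (SD, n = 3). PDK2 took 60.8% ± 7.08, 54.9% ± 2.38, 49.1% ± 1.63 and 41.4% ± 1.73 in the same groups. The ratio of PDK4 to PDK1 per base with ethanol was 0.154 ± 0.0160 for siCT and 0.220 ± 0.00727 for siPRMT1, and with R5020 it was 0.979 ± 0.101 and 1.16 ± 0.115. These ratios rest on exon lengths of 4519 bases for PDK4 and 14883 for PDK1. In CPM with R5020, the means of PDK4 and PDK1 were 8.97 and 30.6 for siCT and 15.1 and 43.1 for siPRMT1. With the longest coding transcript as the length, the PDK4 share was 0.985%, 8.51%, 1.87% and 13.1%. With that length the order of PDK2 and PDK3 depended on the siRNA. PDK2 took 53.4% and PDK3 40.4% with siCT and ethanol, and 51.3% and 33.0% with siCT and R5020. With siPRMT1, PDK3 was above PDK2 in ethanol, at 49.2% against 41.9%, and level with it in R5020, at 38.8% against 38.7%.

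**Figure D3:**
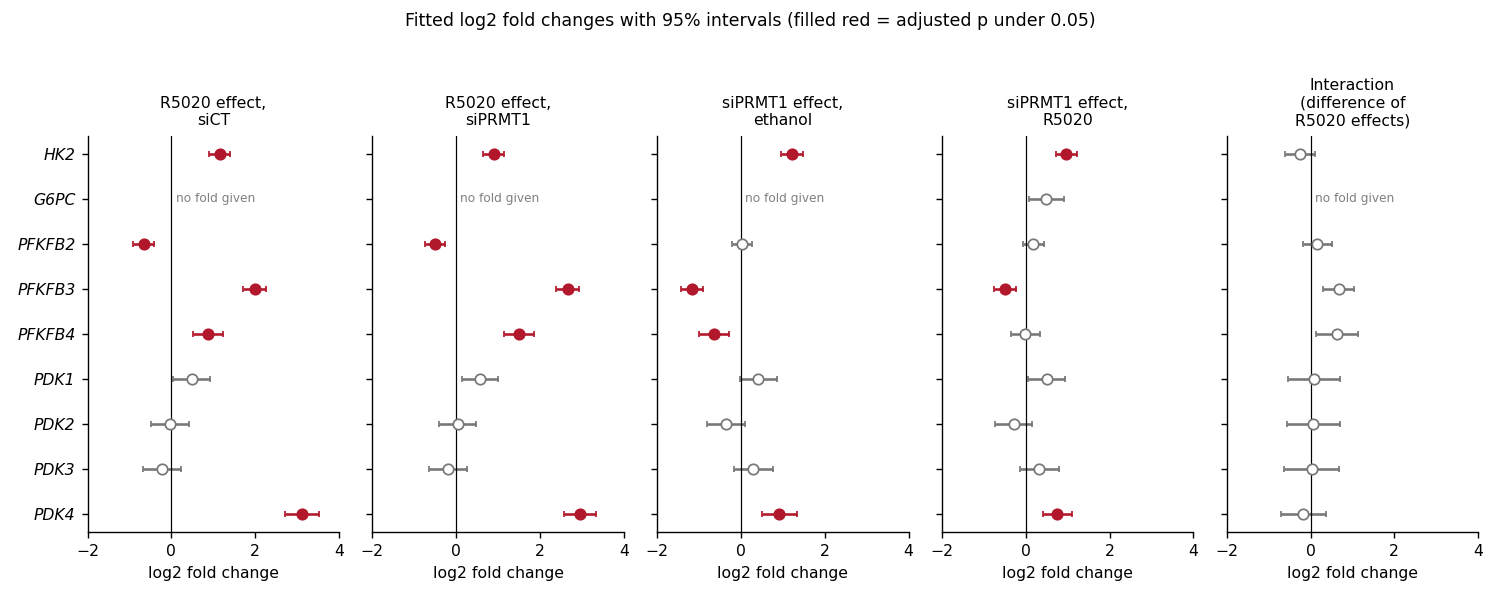
Fitted log2 fold changes of the 9 genes in 5 comparisons, with 95% intervals over the 12 libraries; filled red points have an adjusted p under 0.05, and open grey points do not. The red points of both R5020 panels belong to the same 5 genes, those of siPRMT1 lie right of 0 for HK2 and PDK4 and left of it for PFKFB3 and PFKFB4, and the interaction panel has none; G6PC has no fold where a group has 0 or 1 count.

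The intervals in the plot of fold changes are narrowest for HK2, PFKFB2 and PFKFB3 (SE 0.11 to 0.13 in the first 4 panels) and widest for PDK1, PDK2 and PDK3 (SE 0.20 to 0.21). In the interaction panel the intervals of PFKFB3 and PFKFB4 lie above 0 before adjustment, and those of the other 6 genes shown include it.

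A list of 42 other genes of these steps and their regulators was examined alongside, of which 34 passed the filter. This list was also chosen with earlier results of these data known. R5020 raised 4 and lowered 2 of the 34 in siCT cells, where 7.59% and 5.43% of all genes tested were called higher and lower. It raised 5 and lowered 3 in siPRMT1 cells, against 9.30% and 6.08% of all genes. With siPRMT1, 11 rose and 6 fell in ethanol, against 13.6% and 19.2% of all genes, and 9 rose and 3 fell in R5020, against 11.5% and 14.2%. The counts that fell were thus near or below the shares of all genes. The interaction was called in 0 of them by edgeR, where 0.0451% and 0.0338% of all genes were called higher and lower, with 3 of the 34 at an unadjusted p under 0.05, and in 0 by DESeq2 and limma voom. The median log2 difference over the 34 was 0.06, 0.12, 0.17 and 0.14 in the first 4 comparisons, where that of all genes was -0.04, -0.00361, -0.07 and -0.03.

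Of the 43 calls in these 4 comparisons, 41 held without the pair of libraries rich in mitochondrial counts and 12 held in all 20 other settings. Those lost without the pair were TIGAR and PDHB with siPRMT1 in ethanol (log2 0.58 and 0.37, adjusted p = 0.0545 and 0.0710). Without the pair, R5020 raised 4 and lowered 4 of the 34 in siCT cells and raised 8 and lowered 5 in siPRMT1 cells, and siPRMT1 raised 11 and lowered 8 in ethanol and raised 11 and lowered 4 in R5020. All genes called, both directions together, rose from 2308 to 3568 for R5020 in siCT and from 2725 to 5226 for R5020 in siPRMT1 cells. For siPRMT1 in R5020 they rose from 4559 to 6992. No such total is given here for siPRMT1 in ethanol, and none without the pair is split by direction. With library totals, R5020 raised 0 of the 34 in siCT and 2 in siPRMT1 cells. In that setting siPRMT1 raised 4 in ethanol and 0 in R5020. All genes called higher with library totals numbered 868, 897, 1325 and 744 in these 4 comparisons.

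At the glucose phosphate step, neither HK1 nor ADPGK was called with all 12 libraries, and of the genes of glucose-6-phosphate release only SLC37A4, the transporter that feeds G6PC in the endoplasmic reticulum, was called, 1.995-fold lower with siPRMT1 in ethanol (log2 -0.997, adjusted p = 0.00953). G6PC3, the widely expressed relative of G6PC, was tested and not called in any comparison. At the phosphofructokinase step, PFKM (the muscle subunit) was 1.80-fold lower with R5020 in siPRMT1 cells, 1.71-fold lower with siPRMT1 in ethanol and 2.33-fold lower with siPRMT1 in R5020 (adjusted p = 0.000768, 0.00137 and 0.000120). PFKP (the platelet subunit) was 1.44-fold higher with R5020 in siPRMT1 cells and 1.34-fold lower with siPRMT1 in ethanol (adjusted p = 0.0107 and 0.0221). FBP1, the phosphatase that opposes phosphofructokinase, was 1.90-fold and 2.07-fold higher with siPRMT1 in ethanol and R5020 (adjusted p = 0.00813 and 0.00530). TIGAR, listed in the files by its older symbol C12orf5, was 1.77-fold higher with siPRMT1 in ethanol (adjusted p = 0.0412), a call that ended without any 1 of 9 libraries. Those of PFKP ended without siPRMT1 ethanol replicate 3 or siPRMT1 R5020 replicate 3 for R5020, and without siCT ethanol replicate 3 or any siPRMT1 ethanol library for siPRMT1. With library totals, FBP1, PFKP and TIGAR lost all of these calls, and PFKM lost that with siPRMT1 in ethanol.

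Downstream of the PDK genes, PDHA1, the subunit that the kinases phosphorylate, was 1.55-fold higher with R5020 in siCT and 1.44-fold higher in siPRMT1 cells (adjusted p = 0.0188 and 0.0428). Of 15 genes of pyruvate dehydrogenase and pyruvate fate, siPRMT1 raised 7 and lowered 1 in ethanol, where 13.6% of all genes were called higher and 19.2% lower, and raised 6 and lowered 1 in R5020, where the shares of all genes were 11.5% and 14.2%. The subunit genes DLAT and DLD were 2.26-fold and 2.24-fold higher in ethanol and 1.97-fold and 2.22-fold higher in R5020 (adjusted p = 0.00398, 0.00499, 0.0128 and 0.00676). PDHX, the mitochondrial pyruvate carrier gene MPC1, the pyruvate dehydrogenase phosphatase gene PDP1 and the lactate dehydrogenase gene LDHA were called higher in both, and PDHB in ethanol. PC, which carboxylates pyruvate, was the 1 lower, 1.497-fold in ethanol and 1.63-fold in R5020 (adjusted p = 0.0455 and 0.0253). LDHA was also 1.85-fold higher with R5020 in siCT cells (adjusted p = 0.00740). Leaving out 1 library ended several of these calls: any of 10 libraries did so for PDHB in ethanol, any of 9 for PC in ethanol and for LDHA with siPRMT1 in R5020, any of 8 for PDHA1 in siPRMT1 cells, any of 7 for PDP1 in R5020 and any of 5 for PC in R5020. The call of PDHA1 in siCT cells ended without siCT R5020 replicate 2 or 3, and that of DLAT in R5020 without siPRMT1 R5020 replicate 2. With library totals, all calls of these genes with siPRMT1 in R5020 were lost. In ethanol only those of DLD, MPC1 and LDHA were kept. The calls of PDHA1 and LDHA with R5020 were lost in that setting too.

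Among 9 regulators, FOXO1, known as an activator of G6PC and PDK4 in liver, was 2.02-fold higher with R5020 in siCT and 3.19-fold higher in siPRMT1 cells (adjusted p = 0.000312 and 4.18e-06), and 1.39-fold higher with siPRMT1 in R5020 (adjusted p = 0.0271). HIF1A, the inducible subunit of the hypoxia factor, was 1.85-fold and 2.54-fold higher with R5020 (adjusted p = 0.00903 and 0.000387) and 1.49-fold and 2.04-fold higher with siPRMT1 in ethanol and R5020 (adjusted p = 0.0429 and 0.00324). PPARGC1A, a coactivator known to raise G6PC and PDK4 in fasting liver, went the other way with R5020, 3.42-fold lower in siCT and 5.90-fold lower in siPRMT1 cells (adjusted p = 0.000323 and 6.49e-06), and was 2.29-fold higher with siPRMT1 in ethanol (adjusted p = 0.00175). PRKAA1, a subunit of the AMP-activated kinase, was 1.53-fold and 1.45-fold lower with R5020 (adjusted p = 0.0268 and 0.0478). PPARA was 1.37-fold higher with R5020 in siPRMT1 cells and 1.47-fold lower with siPRMT1 in ethanol (adjusted p = 0.0321 and 0.00740). MLXIPL, a glucose-sensing transcription factor gene, was 2.60-fold and 1.93-fold lower with siPRMT1 in ethanol and R5020 (adjusted p = 0.00522 and 0.0364). Of these regulator calls, those near the threshold ended when 1 library was left out: any of 9 for HIF1A with siPRMT1 in ethanol, any of 7 and 8 for PRKAA1 in siCT and siPRMT1 cells, any of 6 for PPARA with R5020 and for MLXIPL in R5020, and any of 5 for FOXO1 with siPRMT1. With library totals, the regulator calls kept were those of PPARGC1A and MLXIPL and, for R5020 in siPRMT1 cells, those of FOXO1 and HIF1A.

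**Figure D4:**
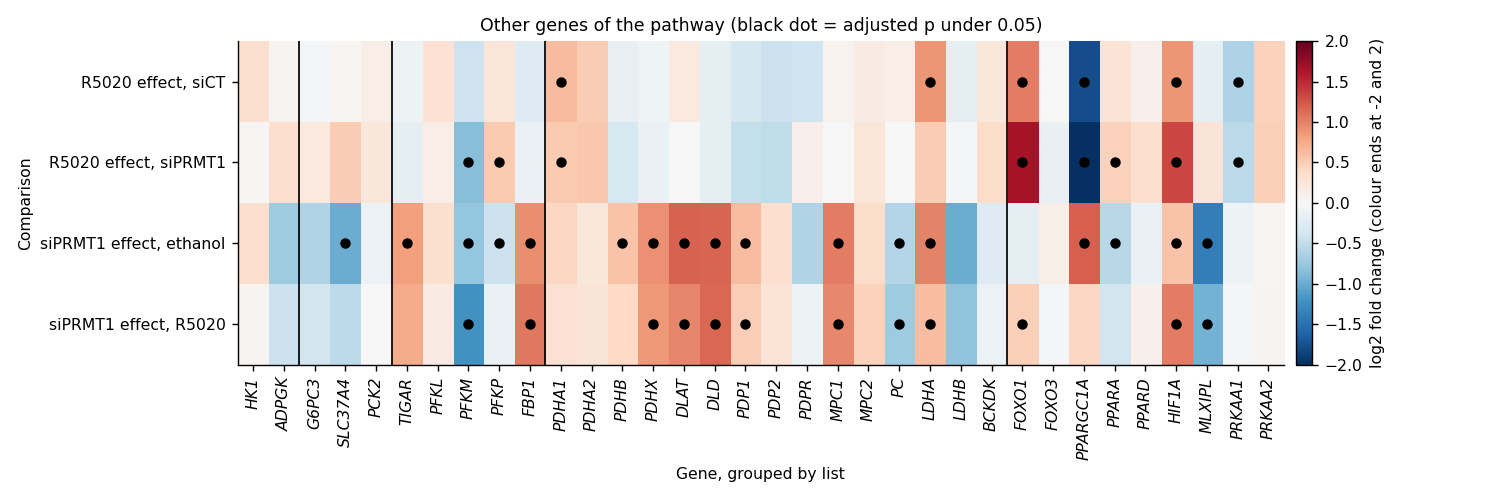
Log2 fold changes of the 34 other genes of the pathway that were tested, in 4 comparisons (rows), as colours that end at -2 and 2; black dots mark an adjusted p under 0.05 and vertical lines separate the 5 lists. The R5020 rows have 6 and 8 dots, and the siPRMT1 rows have 17 and 12.

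In the colour map of the pathway genes, 4 of 6 dots in the siCT row for R5020 and 5 of 8 in the siPRMT1 row belong to the 9 regulators on the right. In the siPRMT1 rows, the 15 pyruvate genes hold 8 of 17 dots in ethanol and 7 of 12 in R5020, and the 5 genes of the phosphofructokinase step hold 4 and 2.

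The genes whose log2 CPM followed each member most closely over the 12 libraries were named from 11091 candidates, as a description; the 12 libraries share the 4 groups and their depth. For G6PC they were STAT5A, WWC1 and KIAA1432 (Pearson r 0.994 to 0.997). For PDK4 they were FGD4, NOTCH2NL and GPSM2 (0.994 to 0.998), and for PFKFB3 TRIM22, HILPDA and RCAN1 (0.995 to 0.996). Each ethanol library held 0 or 1 count of G6PC, so its log2 CPM there lies at the floor and its r largely reflects the split by treatment. HK2 was closest to GRHL1, RPS6KA2 and SEPT8 (0.983 to 0.990), PFKFB2 to IKZF2, PXK and CDC42BPA (0.987), and PFKFB4 to GMIP, GNA12 and IMPDH1 (0.978 to 0.985). PDK1 was closest to TMEM241, CHCHD4 and YWHAH (0.982 to 0.988), PDK2 to NUDT16L1, HCFC1R1 and SLC2A4RG (0.9701 to 0.9749), and PDK3 to RAB22A, VPS4B and GEMIN6 (0.958 to 0.964).

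The authors' deposited table gave the same call as edgeR here for 8 of the 9 genes in 3 of its 4 comparisons and for 7 of the 9 for siPRMT1 in R5020. The calls that differed from the authors' deposited table were those of PFKFB2, PDK1, PFKFB4 and G6PC named above.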

How the data were processed

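RNA-seq of 12 T47D libraries was used. Per the labels' protocols, total RNA was extracted with TRIzol and cDNA was built with Lexogen's SENSE kit for mRNA. The authors deposited whole-number read counts per gene symbol for each library, not normalized. The submitters' processing notes name hg19, HTSeq 0.9.1, Bowtie2 2.3.2.2 and DESeq2; annotation, strand setting and duplicate handling were not given in the sources used here. The authors also deposited a table of log2 fold changes and adjusted p-values for 4 comparisons, which was used only to set its calls beside those made here.

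The count test was that of edgeR 4.0.16 under R 4.3.3 (filterByExpr, TMM, 1 mean per group over all 12 libraries, quasi-likelihood test, Benjamini-Hochberg over 17727 genes, called at an adjusted p under 0.05). The procedure was tested on simulated data. Levels are TMM-scaled CPM with the SD over 3 libraries. The p-values reflect a spread that all 4 groups share, although the groups differed in noise. The limma voom quality weights, lower for a more variable library, were 0.112 to 0.410 in siCT ethanol and 0.175 to 2.31 in siCT R5020. They were 2.36 to 2.79 in siPRMT1 ethanol and 1.33 to 3.14 in siPRMT1 R5020. Counting intervals and floors cover counting error alone, as no molecular identifiers were counted. A fold against 0 counts uses a floor of 3 counts per library. Exon lengths, shared bases and gene positions come from GENCODE release 29 (GRCh38), not from the build of the counts, so no position of the counts is given. HK2, G6PC and the other symbols matched by name, and the RefSeq promoter window of G6PC is under its current symbol.

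Alternatives were library totals or RLE scaling, no filter (any count above 0), DESeq2 1.42.0, limma 3.58.1 voom with quality weights, only the groups compared, a replicate block, leaving out each library, and leaving out siCT ethanol replicate 3 with siCT R5020 replicate 1. A second gene length, and these settings for the pathway genes, were added after the data were seen. All 9 genes are named, with the pathway genes called in a comparison and the 3 genes most like each member. The members and all lists were chosen with earlier results of these data known.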

Additional observations from a re-analysis of the deposited data

How the results depend on the processing

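Over all settings tried, the rises of G6PC, PFKFB3 and PDK4 with R5020 in both backgrounds kept their direction and stayed past the threshold. So did the rises of HK2 with R5020 in siCT cells, of PFKFB4 with R5020 in siPRMT1 cells and of HK2 with siPRMT1 in both treatments. The fall of PFKFB3 and the rise of PDK4 with siPRMT1 in ethanol did so too. Apart from leaving out single libraries, called members kept their call in 140 of 152 recomputed values and lost it in 12; with single libraries left out they kept it in 226 of 228. The cause of the changes below was not tested.

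Members called lower numbered 0 with library totals for R5020 in siCT, R5020 in siPRMT1 and siPRMT1 in R5020, and 1 for siPRMT1 in ethanol. All genes called lower there numbered 710, 1167, 1685 and 1696, against 963, 1077, 2513 and 3399 in the main fit. With library totals 1 member was called higher for siPRMT1 in R5020, where 744 of all genes were, against 2046 in the main fit. With no filter, 0 were called lower for R5020 in siPRMT1 and for siPRMT1 in R5020. With only the groups compared, members called lower were 0 for R5020 in siCT, 2 for R5020 in siPRMT1 and 1 for siPRMT1 in ethanol, and 4 were called higher for siPRMT1 in R5020. All genes called with only the groups compared numbered 898 for R5020 in siCT, 7813 for R5020 in siPRMT1 and 3324 for siPRMT1 in ethanol. For that setting and for no filter, no split of all genes by direction is given here. With limma voom, and likewise without the pair rich in mitochondrial counts, 4 were called higher and 2 lower for siPRMT1 in R5020. All genes called there numbered 9866 and 6992 of them, against 4559 in the main fit, so the calls over all genes rose too. For the interaction, DESeq2 and the fit without the pair each called 1 member higher, where they called 89 and 140 of all genes.

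All genes called numbered 2308 for R5020 in siCT, with 898 when only the groups compared were used and 3568 without the pair. For R5020 in siPRMT1 they numbered 2725, with 8179 by limma voom, 7813 with only the groups compared and 5226 without the pair. For siPRMT1 in ethanol they numbered 5806, with 3021 under library totals and 3324 with only the groups compared. For siPRMT1 in R5020 they numbered 4559, with 2429 under library totals, 9866 by limma voom and 6992 without the pair. For the interaction they numbered 14, with 3 under library totals, 29 with no filter, 89 by DESeq2, 65 by limma voom and 140 without the pair.

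Values near 0 changed sign. For R5020 in siPRMT1, PDK2 was -0.14 under library totals (log2). For siPRMT1 in R5020, PFKFB4 was 0.0222 under library totals and 0.0117 with no filter. The interaction under library totals was -0.0321 for PDK1, -0.0542 for PDK2 and -0.11 for PDK3, and that of PDK3 was -0.0381 by limma voom and -0.000234 without the pair.

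Leaving out 1 library at a time gave 1550 to 3029 genes for R5020 in siCT, 1831 to 3820 for R5020 in siPRMT1, 3487 to 7827 for siPRMT1 in ethanol, 2332 to 6768 for siPRMT1 in R5020 and 0 to 32 for the interaction, which was 0 without siCT R5020 replicate 2 or 3 and without any 1 of the 6 siPRMT1 libraries. The lowest counts for siPRMT1 came without siPRMT1 ethanol replicate 3 (3487) and without siPRMT1 R5020 replicate 2 (2332). Members called lower ranged from 1 to 2 for siPRMT1 in ethanol and from 0 to 1 for siPRMT1 in R5020, and members called higher from 2 to 4 for siPRMT1 in R5020. Log2 values ranged from -0.18 to 0.28 for PDK2 with R5020 in siCT, -0.0123 to 0.0898 for PDK2 with R5020 in siPRMT1, -0.0655 to 0.0474 for PFKFB4 with siPRMT1 in R5020, and, for the interaction, -0.11 to 0.22 for PDK1, -0.24 to 0.18 for PDK2 and -0.19 to 0.21 for PDK3.

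The shared replicate numbers of the labels showed no pairing by correlation. Of 18 same-numbered pairs between groups, 3 had a correlation of deviations over 0.1 (range -0.667 to 0.290), and 0 of 12 libraries correlated best with their own number in every other group. The pair rich in mitochondrial counts, of unlike numbers, reached 0.808. Deviations of 3 libraries from their group mean sum to 0 and so constrain each other. These correlations therefore cannot decide whether a number marks a shared batch. With the replicate block the interaction called 0 genes, and no member's call changed. The G6PC bound in siCT is 280.6 with a floor of 3 counts over the group. Depth limits G6PC in ethanol, where it could not be read apart from 0.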
